A study of Rattus norvegicus with 78 samples.

Results

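The genes described here encode the machinery that fills synaptic vesicles with transmitter and releases it at nerve terminals. A list of 43 gene symbols was chosen by function, with earlier results of these data known. The symbols were looked up among the 9667 genes that could be named in the value table of 26419 features. Of the 43, 41 were found, each represented by its row with the highest mean log2 value, and Napb and Erc1 are not analysed here. By role they were 8 proteins of the vesicle membrane or associated with vesicles (Syp, Synpr, Syngr1, Sv2a, Sv2b, Sv2c, Sncb, Dnajc5) and 2 glutamate transporters (Slc17a6, Slc17a7). A further 3 were synapsins (Syn1, Syn2, Syn3) and 8 were calcium sensors and related C2-domain proteins (Syt1, Syt2, Syt4, Syt5, Syt7, Doc2a, Doc2b, Rph3a). The others were 6 SNAREs and complexins (Snap25, Vamp1, Vamp2, Stx1a, Cplx1, Cplx2), 2 factors that take SNARE complexes apart (Nsf, Napa), 2 vesicle GTPases (Rab3a, Rab3c), 8 active-zone and priming proteins (Rims1, Rims2, Unc13a, Unc13b, Unc13c, Bsn, Pclo, Cadps) and 2 proteins of endocytosis (Dnm1, Amph).

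Transcripts were measured on 78 single-colour arrays of hippocampus and amygdala from male rats, all of them from the Low Responder line, which is bred for little locomotion in an unfamiliar cage. In the exposed groups the dams drank water carrying the serotonin reuptake inhibitor paroxetine, 10 mg/kg/day, from the week before conception, through gestation, up to weaning at P21. In the control groups the dams drank normal water. Offspring of both arms were taken at P7, P14, P21 or P75 (postnatal days), the last well after the end of exposure at weaning. The 16 groups of region, age and arm held 5 arrays each, with 4 in both exposed P7 groups. The labels name no litters and do not say whether an array held 1 pup or several, and p-values therefore reflect array-to-array spread alone.

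Transmitter is packed into vesicles by transporters of the vesicle membrane, and vesicles are held in clusters by synapsins. A vesicle fuses when the vesicle SNARE Vamp pairs with Snap25 and syntaxin on the plasma membrane, an event that Unc13 and Rim proteins prepare, complexins clamp and synaptotagmins trigger on calcium entry. Nsf and Napa then release the SNAREs for another round, and dynamin and amphiphysin take the membrane back. In the rodent hippocampus and amygdala most of these genes are switched on before birth or in the first postnatal weeks, while synapses form.

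Values are normalized intensities on a linear scale, and each difference is the mean log2 value of exposed arrays less that of control arrays, ± its SE from limma. The words rose and fell are kept for genes with a p under 0.05 after Benjamini-Hochberg adjustment over all 26419 features. Within groups, pairs of arrays correlated at 0.926 to 0.985 across features. Measures of whole arrays separated the arms as well. In the hippocampus this was so at every age. The interquartile range of log2 intensity averaged 2.79 on exposed and 3.21 on control arrays at P7, 2.87 and 3.14 at P14, 2.89 and 2.74 at P21, and 2.97 and 2.72 at P75. A control probe of random sequence averaged 53.0 on exposed and 44.0 on control arrays at P7, 48.6 and 45.2 at P14, 47.6 and 55.2 at P21, and 49.0 and 56.3 at P75. In the amygdala the random probe did not overlap at P7 (42.9 to 47.1 on exposed and 48.5 to 49.3 on control arrays), P21 (46.2 to 47.1 and 44.9 to 46.04) and P75 (44.3 to 47.5 and 50.2 to 51.3). The interquartile range did not overlap at P7 (3.31 to 3.44 on exposed and 3.03 to 3.21 on control arrays) and P21 (2.98 to 3.02 and 3.16 to 3.19). The labels give no batch, and array measure and arm cannot be told apart. These are tissue samples, in which fewer cells of a type and less RNA per cell cannot be told apart.

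In the hippocampus at P7 most release genes were lower in exposed than in control rats. Of the 41 genes 30 fell and 4 rose, against 53.4% of all features called (28.3% fell, 25.1% rose), and the median difference was -0.89, against 0.07 over all features. The 2 groups did not overlap for 31 genes, against 40.4% of all features. When the random probe was a covariate 8 genes passed (1 rise, 7 falls). The probe differs between the arms, so that this fit also removes difference between the arms. Here and below, counts with this covariate are given without the share of all features called in the same fit. They therefore do not show whether the list lost more calls than other features. The falls reached across the vesicle membrane and associated proteins (6 of 8 fell), both glutamate transporters and all 3 synapsins. They also took in the calcium sensors (6 of 8 fell), the priming proteins (5 of 8 fell) and both endocytic genes. The SNAREs and complexins were divided, with 3 rises and 3 falls.

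Syp encodes synaptophysin, an abundant membrane protein of synaptic vesicles. It read 3106, 2778, 2310.4 and 3205 on exposed arrays and 13109, 12126, 13201, 14030.0 and 11569.5 on control arrays. Every exposed array lay far below every control array, and the fall of 2.18 ± 0.11 on the log2 scale (adjusted p = 7.35e-19) corresponds to a level 4.52 times lower. Slc17a6, the vesicular glutamate transporter of mainly subcortical neurons, had 167, 270.3, 303 and 213 on exposed arrays, against 1029, 1099.9, 1065, 981 and 1104 on control arrays, a difference of -2.18 ± 0.20 (adjusted p = 7.43e-12). Its partner Slc17a7, the main vesicular glutamate transporter of cortical and hippocampal neurons, had 3982, 3444, 4223 and 4032 on exposed arrays and 9480.2, 9298, 8319, 9417 and 7966 on control arrays, a difference of -1.18 ± 0.11. Neither transporter overlapped between the groups.

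Sv2a, a vesicle glycoprotein that binds the antiepileptic levetiracetam, had 1235, 1174, 1299 and 1086 on exposed arrays and 4605, 4884, 5098, 4663 and 4560.2 on control arrays (difference -1.99 ± 0.11, adjusted p = 7.51e-18). The related Sv2b differed by -1.58 ± 0.14 and also fell, while Sv2c, with 171, 179, 173 and 193 on exposed and 252, 317, 212, 269 and 211 on control arrays, differed by -0.48 ± 0.25 and did not pass (adjusted p = 0.0987). Synpr, synaptoporin, a relative of synaptophysin abundant in mossy fibre terminals, fell by 1.58. Dnajc5, a vesicle chaperone, fell by 1.36 and Syngr1, synaptogyrin, by 1.24. Of the synapsins, Syn2 differed by -1.56 ± 0.13, Syn3 by -1.04 ± 0.20 and Syn1 by only -0.43 ± 0.11, and all 3 fell. Syn2 had 802, 772, 689 and 642 on exposed and 2426, 2635, 1862, 1793 and 2075 on control arrays. Syn3 had 298, 492, 366 and 349 on exposed and 774, 782, 682, 806 and 766 on control arrays, and neither of these overlapped. The difference of Syn1 was 0.018 with the random probe as a covariate.

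Among the calcium sensors Doc2a had 572, 552, 587 and 609.7 on exposed and 1388, 1462, 1300.0, 1249 and 1359.9 on control arrays, and fell by 1.22, Syt4 by 1.29, Syt5 by 1.24, Rph3a by 0.47 and Syt7 by 0.34. The fall of Doc2b by 0.40 was lost in 6 of 9 fits that left out 1 array, and its difference was 0.61 with the random probe as a covariate.

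The 4 genes that rose at P7 were the t-SNARE Snap25, the v-SNAREs Vamp1 and Vamp2, and Syt1, the fast calcium sensor of release. Snap25 had 17213, 15266, 16217 and 14299 on exposed arrays, against 8997, 9300.1, 10392, 9484 and 8308 on control arrays (difference 0.76 ± 0.099, adjusted p = 4.04e-08). Syt1 had 10694, 9302, 9842 and 10475 on exposed and 8365, 7889, 8452, 7689.9 and 7655 on control arrays (difference 0.33 ± 0.10). Neither gene overlapped between the groups. Vamp2 had 23065, 21767, 20936 and 19897 on exposed and 17397, 15951, 17252, 17552 and 18525 on control arrays, again without overlap, but its difference of 0.30 ± 0.11 was lost without exposed array 1 and was -0.063 with the random probe as a covariate. Vamp1 had 576, 548, 1495 and 1336 on exposed and 588, 601, 587, 592 and 535 on control arrays. Its rise of 0.62 ± 0.19 rested on exposed arrays 3 and 4: it was lost without either, and was -0.047 with exposed arrays 1 and 2 alone. Over the whole list, 3 genes rose and 29 fell with exposed arrays 1 and 2, and 3 rose and 27 fell with exposed arrays 3 and 4.

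The other SNARE genes went the other way at P7. Stx1a, the syntaxin of the plasma membrane, differed by -1.23 ± 0.18, and Cplx2 and Cplx1, the complexins, differed by -0.81 ± 0.094 and -0.34 ± 0.11. Napa, the adaptor that brings Nsf to the SNARE complex, fell by 0.93 and Nsf by 0.65. Of the priming genes Unc13a, Rims2, Rims1, Unc13b and Cadps fell, by 0.89 to 1.15, and Pclo, Bsn and Unc13c, differing by -0.30, -0.19 and 0.10, did not pass. The endocytic genes Amph and Dnm1 fell by 1.33 and 0.70, and Rab3c, a vesicle GTPase, by 0.62. Its relative Rab3a differed by -0.17 ± 0.11 and Sncb, beta-synuclein, by -0.024 ± 0.11, and neither passed.

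**Figure D1:**
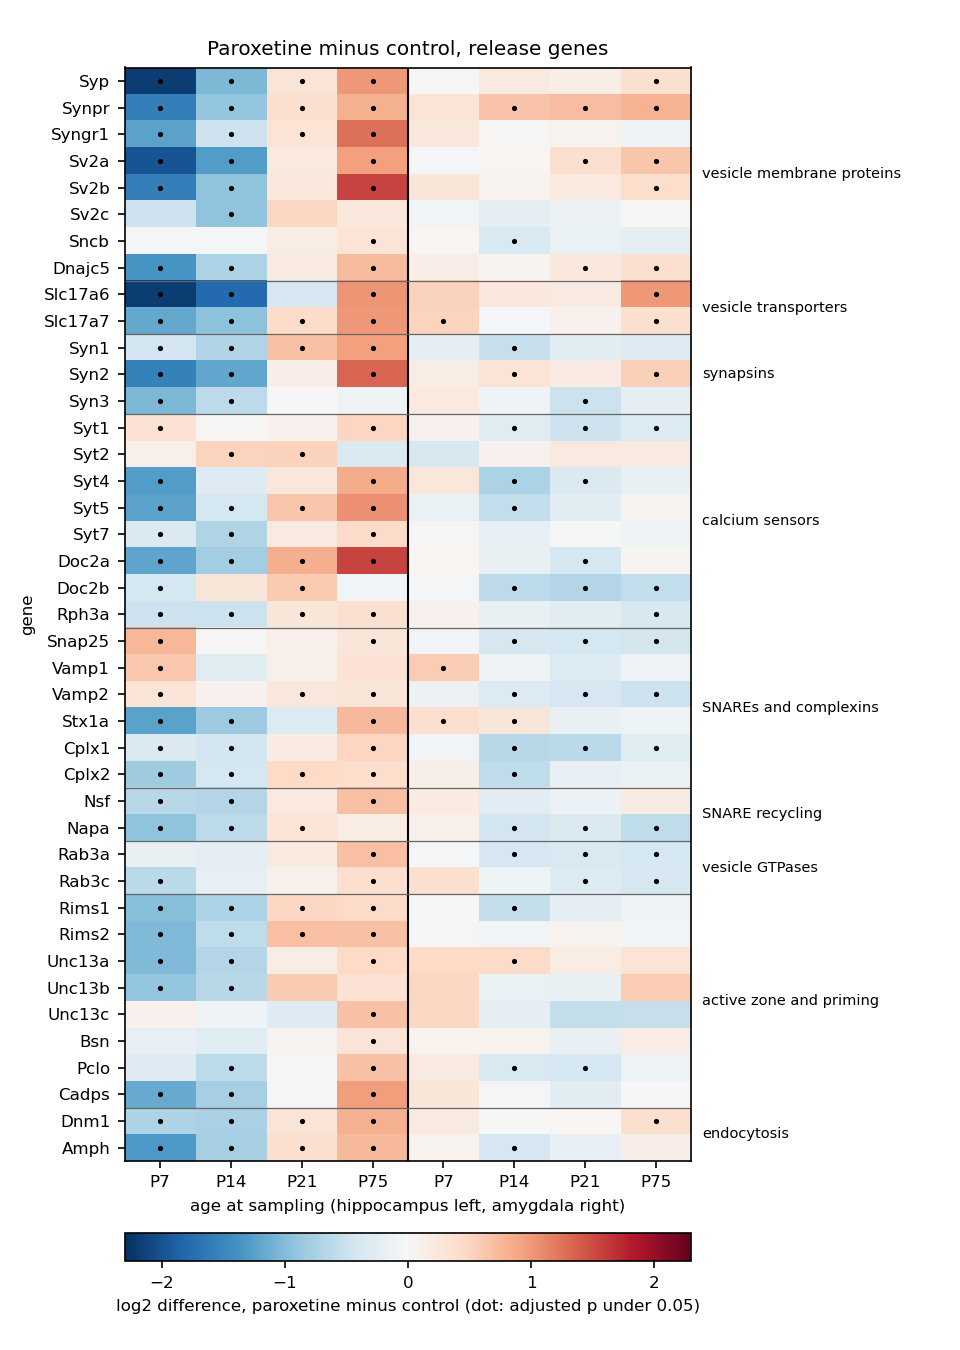
Log2 difference between exposed and control rats for each of the 41 genes (rows, grouped by role), at 4 ages in hippocampus (left columns) and amygdala (right columns). Colour gives the difference and a dot marks an adjusted p under 0.05. The hippocampal columns turn from mostly blue at P7 (30 falls) to red at P75 (34 rises), and the amygdalar columns hold both colours.

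The promoters of 4 genes are printed here because Syp and Slc17a6, with the largest falls, and Vamp1 and Vamp2, which rose, belong to the same machinery. These 4 were chosen after their values were seen. The sequences come from RefSeq (assembly GRCr8, of a reference strain and not of these rats) and run from 250 bases before to 50 after the annotated start, 5′ to 3′ along the gene. Capitals mark the core of the cyclic-AMP response element, TGACG, on either strand (CGTCA; CRE core), and the GC box GGGCGG, on either strand (CCGCCC). Syp lies at chrX:17536400-17536699 on the minus strand, Slc17a6 at chr1:110348197-110348496 on the plus strand, Vamp1 at chr4:159698644-159698943 on the plus strand and Vamp2 at chr10:54292539-54292838 on the plus strand.
Syp: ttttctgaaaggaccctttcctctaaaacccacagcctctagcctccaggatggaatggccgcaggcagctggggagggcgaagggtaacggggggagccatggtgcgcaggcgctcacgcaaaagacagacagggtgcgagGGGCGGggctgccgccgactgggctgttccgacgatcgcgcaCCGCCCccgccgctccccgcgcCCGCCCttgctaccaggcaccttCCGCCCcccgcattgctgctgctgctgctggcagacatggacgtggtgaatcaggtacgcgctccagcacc
Slc17a6: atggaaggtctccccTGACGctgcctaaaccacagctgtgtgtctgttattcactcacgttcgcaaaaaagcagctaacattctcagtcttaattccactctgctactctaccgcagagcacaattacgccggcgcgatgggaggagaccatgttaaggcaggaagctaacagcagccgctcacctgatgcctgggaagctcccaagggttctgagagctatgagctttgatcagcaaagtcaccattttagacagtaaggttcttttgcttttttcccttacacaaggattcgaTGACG
Vamp1: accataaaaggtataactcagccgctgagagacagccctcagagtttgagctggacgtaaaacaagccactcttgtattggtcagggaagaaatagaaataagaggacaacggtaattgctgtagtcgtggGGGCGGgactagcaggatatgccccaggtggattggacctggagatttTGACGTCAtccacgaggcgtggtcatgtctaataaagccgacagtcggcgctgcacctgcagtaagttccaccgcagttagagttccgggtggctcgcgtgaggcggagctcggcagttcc
Vamp2: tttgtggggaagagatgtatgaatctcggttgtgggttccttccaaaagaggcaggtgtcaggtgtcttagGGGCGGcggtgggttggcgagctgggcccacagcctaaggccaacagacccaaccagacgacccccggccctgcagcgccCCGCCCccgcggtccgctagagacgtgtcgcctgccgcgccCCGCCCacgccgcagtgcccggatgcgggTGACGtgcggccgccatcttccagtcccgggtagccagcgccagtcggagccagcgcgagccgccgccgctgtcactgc

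Syp held 4 GC boxes and no CRE core, Slc17a6 held 2 CRE cores and no GC box, and Vamp2 held 3 GC boxes and 1 CRE core. Vamp1 held 1 GC box and the full palindrome TGACGTCA, which contains the CRE core on both strands. Over the 33 genes of the list that had a promoter entry, GC boxes occurred in 22 (66.7%, against 33.1% of 33469 rat promoters of the same length). CRE cores occurred in 12 (36.4%, against 21.2%), and the full palindrome in Napa, Syn1 and Vamp1 (9.09%, against 1.83%). The letters TATAAA, on either strand, were in none of the 33, against 14.2% of all promoters. Median GC content was 64.7% in the 33 and 51.7% in all promoters. These matches describe the letters in the windows and no more.

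At P14 the hippocampal list was still mostly lower in exposed rats. Of the 41 genes 29 fell and 1 rose, against 38.2% of all features called (22.2% fell, 16% rose), with a median difference of -0.61, against 0.01 over all features. The 2 groups did not overlap for 25 genes, against 25.6% of all features. Slc17a6 had 101, 129, 91.3, 133 and 92.2 on exposed arrays and 276, 345, 384, 533 and 355 on control arrays, the largest fall (-1.78 ± 0.18, adjusted p = 1.27e-09). The random probe read 48.1 to 49.3 on the same exposed arrays, not far below Slc17a6. Sv2a had 2056, 2063, 2071, 2270.4 and 2198 on exposed and 5182, 4617, 4932, 5066 and 6143 on control arrays (-1.28 ± 0.099), and Syp had 7012, 6782, 6958, 7368 and 7238 on exposed and 14015, 12899.8, 13463, 15588 and 16375 on control arrays (-1.03 ± 0.099). None of these 3 genes overlapped between the groups.

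All 3 synapsins fell again, Syn2 by 1.19, Syn1 by 0.69 and Syn3 by 0.60, the last lost without control array 5 or exposed array 5. Sv2c, which had not passed at P7, fell at P14 by 0.93 ± 0.23, with 88.7, 188, 203, 96.5 and 259 on exposed and 318, 225, 249, 346 and 347 on control arrays. Of the genes that had risen at P7, Snap25 differed by 0.03 ± 0.093, Vamp2 by 0.11 ± 0.10 and Syt1 by 0.029 ± 0.097. Vamp1 differed by -0.28 ± 0.18, and none of the 4 passed. The gene that rose was Syt2, a fast calcium sensor of inhibitory and brainstem terminals, with 1153, 759, 859, 874 and 791 on exposed and 653, 684, 502, 606 and 659 on control arrays (0.51 ± 0.15, adjusted p = 0.00854). The P14 controls formed 2 sets by whole-array measures. With control arrays 1 to 3 alone 25 genes fell and 2 rose, and with control arrays 4 and 5 alone 30 fell and 0 rose. The rise of Syt2 was lost with the second set.

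By P21, the day of weaning, the direction had turned. In the hippocampus 17 of the 41 genes rose and 0 fell, against 26.4% of all features called (15.8% rose, 10.6% fell), and the median was 0.26, against 0.04 over all features. The 2 groups did not overlap for 14 genes, against 22% of all features. Doc2a, a high-affinity calcium sensor linked to spontaneous and asynchronous release, had 373, 489, 335, 409 and 417 on exposed arrays and 206, 225, 230.0, 231 and 231 on control arrays (0.84 ± 0.12, adjusted p = 8.55e-06). Every exposed array was above every control array. Syn1, which links vesicles into the reserve pool, had 8344, 10197, 8764, 8976 and 9198 on exposed and 6110.5, 5883, 5505, 5771 and 5119 on control arrays (0.68 ± 0.10), also without overlap. Rims2, an active-zone scaffold, had 247, 288, 291, 424 and 254 on exposed and 176, 110.3, 224, 229 and 202 on control arrays (0.69 ± 0.19). A dimmer second feature of Rims2 went the other way, by -0.50, so that the direction of this gene depends on the feature.

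Of the calcium sensors 5 of 8 rose at P21, among them Syt5 (0.65 ± 0.15), Doc2b (0.60 ± 0.16) and Syt2 (0.52 ± 0.15), the last lost without exposed array 4. Doc2b gave -0.20 and Syt2 -0.11 with the random probe as a covariate. Slc17a7 had 11829.9, 11583, 11526, 12259 and 12094 on exposed and 9125, 8735, 8808, 9449.8 and 8018 on control arrays (0.43 ± 0.10) and did not overlap, while Slc17a6 differed by -0.38 ± 0.18 and did not pass. Synpr rose by 0.37 and Syp by 0.30, the call of Syp lost without control array 3 or exposed array 4. The smaller rises were fragile: that of Vamp2 (0.27) was lost in 8 and that of Napa (0.31) in 9 of 10 fits without 1 array. Leaving out exposed array 4 took the count to 10, and quantile normalization took it to 8 rises and 0 falls. With the random probe as a covariate 0 genes passed in limma, and 2 had an unadjusted p under 0.05.

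Of the 4 ages, P75 had the most rises. At P75 in the hippocampus 34 of the 41 genes rose and 0 fell, against 42.4% of all features called (23.7% rose, 18.6% fell), with a median of 0.67, against 0.02 over all features. The 2 groups did not overlap for 28 genes, against 25.3% of all features. Only 3 genes passed, all of them rises, when the random probe was a covariate. Rises were found in 7 of 8 vesicle membrane or associated proteins, both transporters, 2 of 3 synapsins and 6 of 8 calcium sensors. They were also found in 5 of 6 SNAREs and complexins, both GTPases, 7 of 8 priming proteins and both endocytic genes. Those that did not pass were Syn3 (-0.089 ± 0.19), Syt2 (-0.33 ± 0.15), Doc2b (-0.057 ± 0.16), Sv2c (0.27 ± 0.23), Vamp1 (0.32 ± 0.18), Napa (0.17 ± 0.11) and Unc13b (0.33 ± 0.25).

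Sv2b had 3945, 3923, 4538, 5319.8 and 4043 on exposed arrays and 1702, 1165, 1394, 1706 and 1424 on control arrays, the largest rise (1.56 ± 0.13, adjusted p = 3.43e-11). Doc2a had 546, 739, 568, 705 and 636 on exposed and 158, 262, 212, 223 and 237 on control arrays (1.56 ± 0.12). The groups did not overlap for either gene, and both stood at 2.95 times the control level. Syn2 (1.34 ± 0.13), Syngr1 (1.27 ± 0.10), Syt5 (1.06 ± 0.15) and Slc17a7 (1.00 ± 0.10) followed. Rims2 rose by 0.67, but its dimmer feature gave -0.45.

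Slc17a6 had 243, 181, 259, 153 and 166 on exposed and 73.4, 107, 110.0, 81.9 and 123 on control arrays (1.01 ± 0.18), a rise at a level well below that of P7 controls. Its control values were not far above the random probe, which read 55.3 to 57.2 on the same arrays. Syp had 9223, 9438, 10140.3, 8810.1 and 9066 on exposed and 4255, 4906, 4494, 4870.1 and 5016 on control arrays (0.99 ± 0.099). Neither overlapped between the groups. Snap25 had 42092, 43251, 46353, 43895 and 46190.1 on exposed and 37320.3, 36372, 36804, 39024 and 34023 on control arrays (0.27 ± 0.093), and Vamp2 rose by 0.27 ± 0.10, a call lost in 4 of 10 fits without 1 array. Under quantile normalization both calls were lost. Of the other genes with values per array, Cplx1, Syt1, Sncb and Unc13a lost theirs too, and the remaining genes were not followed singly. The whole list under quantile normalization had 22 rises and 1 fall.

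**Figure D2:**
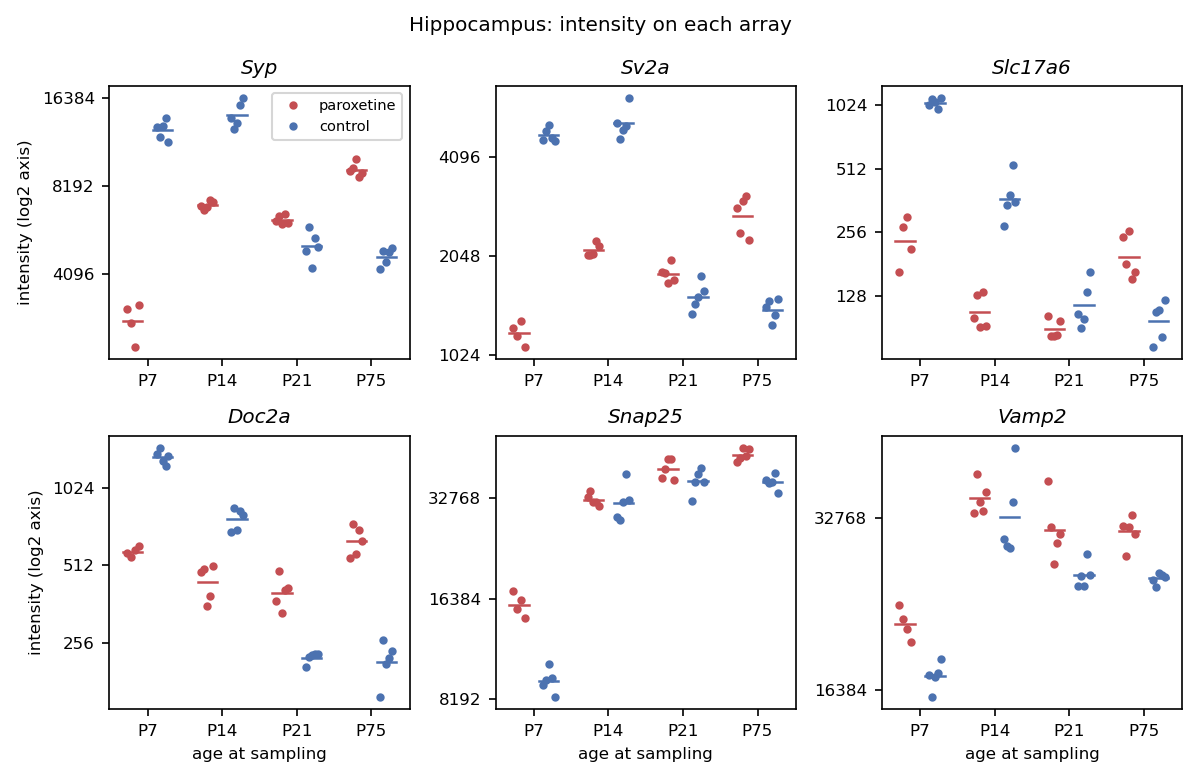
Intensity on each hippocampal array (points, log2 axis) for 6 genes at 4 ages, exposed arrays left of control arrays, with the mean of the log2 values as a bar. Syp, Sv2a, Slc17a6 and Doc2a lie below controls at P7 and P14 and above them at P75, whereas Snap25 and Vamp2 lie above controls at P7.

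Whether the exposure difference changed between pups and adults was tested within the same fit, as the P75 difference minus the P7 difference. In the hippocampus this term was positive for 33 genes and negative for 1, against 59.4% of all features called (30.7% positive, 28.7% negative), with a median of 1.33, against -0.06 over all features. It was 3.20 ± 0.27 for Slc17a6, 3.16 ± 0.14 for Syp, 3.14 ± 0.19 for Sv2b and 2.94 ± 0.14 for Sv2a. The negative term was that of Snap25 (-0.49 ± 0.14, adjusted p = 0.0024), whose rise was larger at P7 than at P75. Under quantile normalization 28 terms were positive and 5 negative, and with the random probe as a covariate 5 passed, all positive. In the amygdala the same term was positive for 2 genes, Sv2a (0.69 ± 0.15) and Synpr (0.49 ± 0.15), and negative for 7, against 17.3% of all features called (5.42% positive, 11.9% negative), and the median was -0.15, against -0.11 over all features. Quantile normalization changed that split to 4 positive and 3 negative. It was 1 positive and 11 negative with exposed P75 arrays 1, 2 and 4 alone, and 4 positive and 0 negative with arrays 3 and 5 alone. With control P7 arrays 1 to 3 alone it was 3 and 2, and with arrays 4 and 5 alone 1 and 8. These sets are described with the amygdalar results.

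The 2 arms also differed in how the list changed with age. In control hippocampus 20 genes rose and 5 fell between P7 and P14 (21.6% of all features called, 10.6% up and 11% down). Between P14 and P21 0 rose and 35 fell (54% of all features, 24.1% up and 29.9% down). Between P21 and P75 4 rose and 3 fell (2.54% of all features, 0.882% up and 1.65% down). Over the whole span from P7 to P75, control levels rose for 11 and fell for 21 genes (59.8% of all features called, 29.4% up and 30.4% down). Under quantile normalization they rose for 15 and fell for 18. In exposed hippocampus 33 genes rose and 1 fell over the same span (39.1% of all features called, 20.3% up and 18.7% down). This comparison was added after values had been seen. Among hippocampal controls the interquartile range averaged 3.14 at P14 and 2.74 at P21, and the random probe 45.2 and 55.2. With the probe as a covariate 2 genes passed in these controls from P14 to P21 and 5 from P7 to P75. The probe differs between the ages, so that this fit also removes difference between ages. These age comparisons and the exposure differences share arrays, so that the one follows in part from the other.

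Syp shows the pattern. In control hippocampus its P14 to P21 change was -1.496 ± 0.099 and its P7 to P75 change -1.44 ± 0.099, while in exposed hippocampus the P7 to P75 change was 1.72 ± 0.11. Snap25 rose with age in both arms, by 1.496 in exposed and 1.98 in control rats. Slc17a6 fell by 3.44 ± 0.18 between P7 and P75 in controls, whereas in exposed rats, already low at P7, its change was -0.24 ± 0.20 and did not pass. Syn3 fell in both arms, by 0.58 in exposed and 1.53 in control rats. In the amygdala 10 genes rose and 10 fell from P7 to P75 in exposed rats (37.5% of all features called, 15.6% up and 22% down). Under quantile normalization 16 rose and 8 fell. In amygdalar controls 14 rose and 6 fell (25.4% of all features, 13.8% up and 11.6% down).

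**Figure D3:**
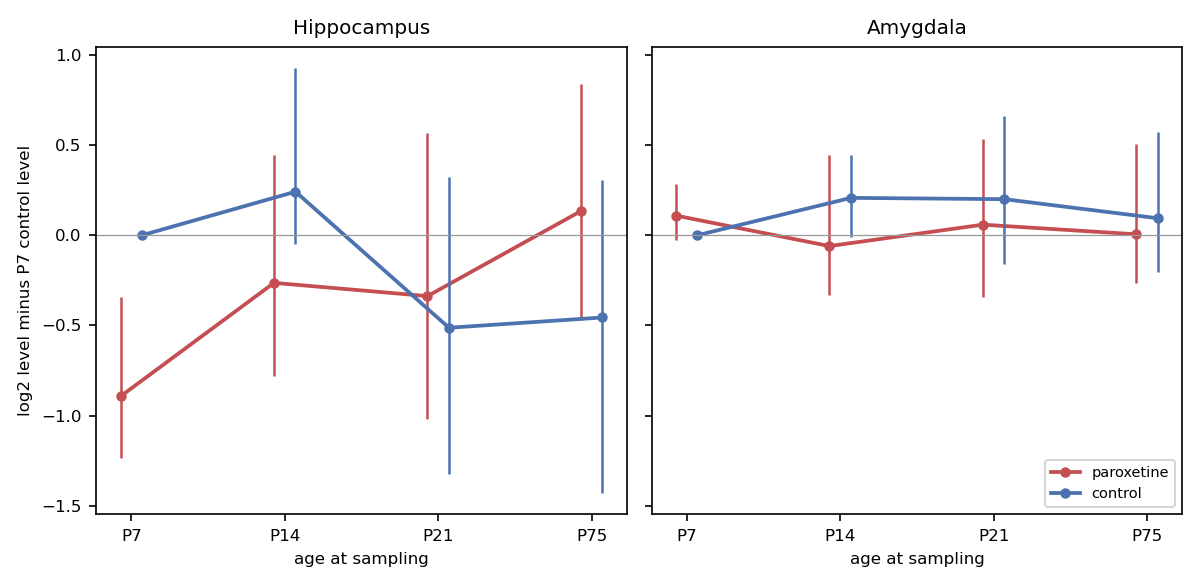
Median over the 41 genes of the log2 level relative to P7 controls of the same region (points and lines), with the interquartile range over genes as vertical bars, by age, for exposed and control rats. In the hippocampus exposed rats start at -0.89 and end at 0.13, while controls go through 0.24 at P14 to -0.46 at P75; in the amygdala the exposed medians stay between -0.06 and 0.11.

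Within 2 of the amygdalar groups the arrays formed 2 sets. In P7 controls the oligodendrocyte markers averaged 10.66 to 10.83 in log2 level on arrays 1 to 3 and 9.10 to 9.24 on arrays 4 and 5, and the hippocampal-neuron markers 9.62 to 9.87 and 9.06 to 9.14. In exposed rats at P75 arrays 3 and 5 had a mean log2 level of the 41 genes of 11.75 and 11.83, interquartile ranges of 3.13 and 3.21 and a random probe at 44.5 and 44.3. Arrays 1, 2 and 4 had means of 11.47 to 11.60, ranges of 2.97 to 2.99 and a probe at 46.7 to 47.5. Fits with each set alone were added after these values had been seen.

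In the amygdala at P7 few release genes differed. Of the 41 genes 3 rose and 0 fell, against 7.83% of all features called (5.66% rose, 2.17% fell), and the 2 groups did not overlap for 6 genes, against 9.45% of all features. Vamp1 had 966, 841, 1198 and 1003 on exposed arrays and 688, 770.3, 718, 560.2 and 590.2 on control arrays (0.59 ± 0.14, adjusted p = 0.00957), without overlap, a call lost without exposed array 3. Slc17a7 had 7389, 8903, 6136 and 6276 on exposed and 5250.0, 5211, 5532, 4479 and 4531 on control arrays (0.51 ± 0.11), also without overlap. Stx1a differed by 0.39 ± 0.11 and rose. Without exposed array 3 the count was 1, and in a fit of only these 2 groups it was 0 by limma and by a plain t-test, with 7 and 10 genes at an unadjusted p under 0.05. With control arrays 1 to 3 alone 1 gene rose, the call of Vamp1 being lost, and with control arrays 4 and 5 alone 4 rose, Sv2b among them (0.65). Syp, which had moved so far in the hippocampus, differed by 0.0028 ± 0.11.

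From P14 on, amygdalar genes of the list were called in both directions. At P14 and P21 rises were no more frequent than over all features. At P14 4 genes rose and 15 fell (35.8% of all features called, 16.5% up and 19.3% down; median -0.17, against -0.06 over all features), and the 2 groups did not overlap for 15 genes, against 22.3% of all features. At P21 3 rose and 12 fell (25.4% of all features called, 9.45% up and 16% down; median -0.18, against -0.07), and the groups did not overlap for 16 genes, against 27.1%. At P75 9 rose and 9 fell (21.1% of all features called, 9.35% up and 11.8% down; median -0.09, against -0.03), and the groups did not overlap for 13 genes, against 12.7%. With exposed arrays 1, 2 and 4 alone the P75 split was 4 rises and 9 falls (22.2% of all features called), and with exposed arrays 3 and 5 alone it was 10 rises and 0 falls (14.1% of all features). Under quantile normalization the P21 split was 5 rises and 7 falls, and in fits of only the groups compared 12 genes passed at P14 and 6 at P75. With the random probe as a covariate 9 genes passed at P21 (3 rises, 6 falls) and 10 at P75 (2 rises, 8 falls).

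Synpr was the member that rose at all 3 of these ages in the amygdala. It had 5072, 4009.9, 4151, 5185 and 4688 on exposed and 2633, 2834, 3035, 2850.1 and 3339 on control arrays at P14 (0.65 ± 0.11), and 4639.5, 4299.9, 4139, 3981 and 3576 on exposed and 2488, 2503, 2386, 2549 and 2582 on control arrays at P21 (0.72 ± 0.11). At P75 it had 3624, 3875, 4138, 4852 and 4902 on exposed and 2255, 2657, 2031, 2586 and 2747 on control arrays (0.80 ± 0.11, adjusted p = 5.38e-07). The groups did not overlap at any of the 4 ages, and at P7 the difference was 0.31 ± 0.11 and did not pass.

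Sv2a, with 5184, 4355, 5434, 5240.3 and 5013 on exposed and 3993, 4024, 3591, 3905 and 3988 on control arrays, rose by 0.37 at P21, without overlap. At P75, with 4365, 4668, 6502, 5586 and 6364 on exposed and 3592, 3693, 3317, 3413 and 3357 on control arrays, it rose by 0.64 ± 0.10. Slc17a6 had 229, 156, 303, 283 and 309 on exposed and 88.8, 231, 182, 56.6 and 144 on control arrays at P75. Its difference of 0.99 ± 0.28 was the largest there, but the groups overlapped and the call was lost without control array 4. The random probe read 50.2 to 51.3 on the P75 control arrays, close to the lowest control values of Slc17a6. Syn2 rose at P75 by 0.55, Syp by 0.37, Slc17a7 by 0.36 and Dnajc5 by 0.36. Sv2b rose by 0.40, a call lost in 6 of 10 fits without 1 array. With exposed arrays 1, 2 and 4 alone the P75 calls of Slc17a6 (0.79), Syp (0.27), Sv2b (0.22) and Slc17a7 (0.24) were lost, as was the fall of Syt1 (-0.33). Unc13a, a priming factor, had 935, 1174, 1057, 1162 and 1023 on exposed and 857, 529.9, 1074, 744 and 812 on control arrays at P14. The groups overlapped, and its rise of 0.45 was a call lost without control array 2.

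The amygdalar falls at P14, P21 and P75 included 4, 3 and 3 of the 6 SNAREs and complexins and 4, 4 and 3 of the 8 calcium sensors. Stx1a rose at P7 and P14 and Vamp1 at P7, and neither fell at any age. Cplx1, Doc2b, Napa, Rab3a, Snap25, Syt1 and Vamp2 each fell at P14, P21 and P75. Cplx1, the complexin of fast-releasing terminals, had 8944, 9285, 9086, 9539.6 and 9666 on exposed and 14136, 14609, 14376, 14268 and 14604 on control arrays at P14 (-0.63 ± 0.11, adjusted p = 1.52e-05), and 11158, 10945, 10224, 10259 and 13275 on exposed and 16227, 17993, 17742, 16567 and 17236 on control arrays at P21 (-0.62 ± 0.11). The groups did not overlap at either age, whereas at P75 they did (-0.29 ± 0.11) and the call was lost in 7 of 10 fits without 1 array. Doc2b fell by 0.60, 0.68 and 0.57 at the 3 ages, and at P21 had 614, 442, 447, 502 and 504 on exposed and 739.5, 837, 689, 791 and 947 on control arrays. At P75 it had 459.8, 415, 558, 566 and 534 on exposed and 727, 714, 592, 914 and 836 on control arrays. Its groups did not overlap at any of these 3 ages.

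Vamp2 fell by 0.32, 0.39 and 0.49 at P14, P21 and P75, and at P75 had 19433, 20521, 22812, 22084 and 26836 on exposed and 29566, 30799.7, 28518, 31847 and 35153 on control arrays. Snap25 fell by 0.39, 0.41 and 0.43, and at P75 had 28009, 24628, 26276, 23104 and 28978 on exposed and 32502, 36611, 36160.5, 37185 and 33132 on control arrays. Both genes were without overlap at all 3 ages. Napa fell most at P75, by 0.58 ± 0.11, with 1759, 1600.2, 2209, 1743 and 2134 on exposed and 2628, 2885, 2651, 2929 and 2889.7 on control arrays. Rab3a fell by 0.35 to 0.40 over the 3 ages and Syt1 by 0.27 to 0.47, the calls of Syt1 at P14 and P75 each lost in 5 of 10 fits without 1 array. Pclo, the active-zone scaffold piccolo, fell by 0.34 at P14 and 0.41 at P21. With exposed arrays 3 and 5 alone the P75 calls of the 7 genes that fell at all 3 ages were lost, at differences between -0.45 for Doc2b and -0.19 for Rab3a. Syt4, a synaptotagmin that binds calcium poorly, had the largest fall of the list at P14 (-0.72 ± 0.12), with 1169.8, 1128, 1433, 1416 and 1205 on exposed and 1803, 2133, 2599, 1712 and 2290.2 on control arrays.

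**Figure D4:**
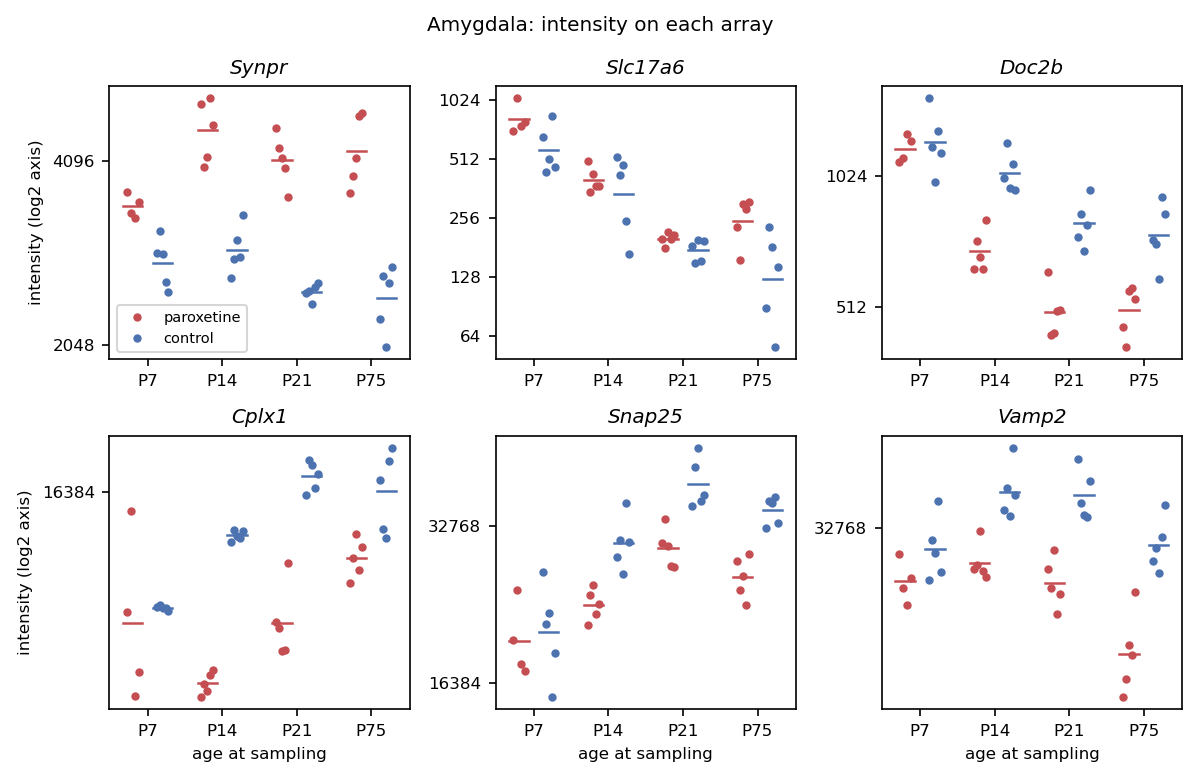
Intensity on each amygdalar array (points, log2 axis) for 6 genes at 4 ages, exposed arrays left of control arrays, with the mean of the log2 values as a bar. Synpr lies above controls from P7 on, and Doc2b, Cplx1, Snap25 and Vamp2 lie below controls at P14, P21 and P75, with some overlap for Cplx1 at P75; the exposed and control arrays of Slc17a6 overlap at every age.

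The 2 regions were compared through a difference of differences, hippocampus minus amygdala, in a fit of all 78 arrays. Levels were not compared, because the values look normalized region by region. At P7 this term was negative for 27 genes and positive for 2, Snap25 and Vamp2 (49.4% of all features called, 29.4% negative and 20% positive). At P14 it was negative for 18 and positive for 4 (28.1% of all features, 16.1% negative and 12% positive), and at P21 positive for 20 and negative for 1 (37.6% of all features, 23.2% positive and 14.4% negative; 11 and 3 under quantile normalization). The exception at P21 was Synpr (-0.35 ± 0.14), which rose in both regions. At P75 it was positive for 31 and negative for 0 (36.9% of all features, 22.3% positive and 14.6% negative). With the random probe as a covariate the term passed for 14 genes at P7, 13 at P14 and 1 at P21.

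At P75 the regional term was 1.495 ± 0.18 for Doc2a, 1.24 ± 0.15 for Syn1 and 1.09 ± 0.14 for Rab3a. Rab3a had 14152, 12653, 12537, 11067 and 12615 on exposed and 8098, 8123, 7589.6, 7354 and 7982 on control arrays in the hippocampus (0.68 ± 0.099), and 12109, 10674, 15622, 11886 and 13918 on exposed and 16615, 17019, 16891, 18074 and 15575 on control arrays in the amygdala (-0.40 ± 0.11). In exposed adults Rab3a was thus higher in the hippocampus, where the groups did not overlap, and lower in the amygdala, where they overlapped. The terms of Snap25 and Vamp2 were positive at every age, between 0.42 and 0.82 for Snap25 and between 0.42 and 0.76 for Vamp2. For Synpr the term was 0.019 ± 0.14 at P75 and for Slc17a6 0.021 ± 0.34, and neither passed. The gene with the smallest mean size of change over the 8 comparisons, 0.166, was Sncb. It rose in the hippocampus at P75 (0.32 ± 0.099), with 26815, 31173, 30169, 29838 and 29299.5 on exposed and 23501, 20664, 26101, 24588 and 23652 on control arrays and no overlap, and fell in the amygdala at P14 (-0.36 ± 0.10).

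Other synaptic genes were also called in the hippocampus. Of 47 other presynaptic genes 3 rose and 28 fell at P7, 1 rose and 21 fell at P14, 11 rose and 2 fell at P21, and 27 rose and 3 fell at P75. Of 30 postsynaptic genes 4 rose and 18 fell at P7, 1 rose and 19 fell at P14, 14 rose and 0 fell at P21, and 22 rose and 0 fell at P75. Over all features 25.1% rose and 28.3% fell at P7, and 16% and 22.2% at P14. The shares were 15.8% and 10.6% at P21, and 23.7% and 18.6% at P75. In the amygdala, at P7, P14, P21 and P75 in turn, 4, 10, 3 and 12 of the other presynaptic genes rose and 0, 14, 15 and 9 fell. Of all features there, 5.66%, 16.5%, 9.45% and 9.35% rose and 2.17%, 19.3%, 16% and 11.8% fell. Amygdalar counts of the postsynaptic genes are not given here. The release genes' features were bright, with 37 of 41 above the hippocampal median of all features. Among the 10% of features with the highest mean, 75.4% were called in the hippocampus at P7 (median -0.25) and 76.3% at P75 (median 0.42).

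Markers of cell types moved too. The shares of all features given for the other synaptic genes apply to the marker counts as well, in both regions. Of 6 neuronal markers, Snap25 among them, 1 rose and 5 fell in the hippocampus at P7, and 6 rose at P75. Their mean log2 level ranged from 11.8 to 11.9 on exposed and from 12.88 to 12.94 on control arrays at P7, and from 12.6 to 12.7 on exposed and from 11.98 to 12.08 on control arrays at P75. Of 8 astrocyte markers 7 fell at P7, 6 fell at P14, 7 rose at P21 and 5 rose at P75. Their mean log2 level at P7 ranged from 10.8 to 10.9 on exposed and from 12.17 to 12.24 on control arrays. Hippocampal-neuron markers averaged 8.42 to 8.64 on exposed and 9.22 to 9.62 on control arrays at P7, and 9.93 to 10.22 and 9.37 to 9.85 at P75. Vascular means were 8.48 to 8.81 on exposed and 9.39 to 9.67 on control arrays at P7. At P75 GABAergic means were 10.79 to 11.01 on exposed and 10.16 to 10.35 on control arrays, and striatal means 9.17 to 9.71 and 8.82 to 9.05. Striatal and oligodendrocyte means overlapped between the arms at P7. Of 8 markers of the choroid plexus, a tissue beside the hippocampus, 6 rose at P7 and 0 fell, with a mean log2 level of 8.41 to 8.70 on exposed and 7.55 to 7.75 on control arrays. Choroid plexus means were 8.03 to 8.38 on exposed and 7.70 to 8.01 on control arrays at P14, but 7.64 to 7.94 and 8.03 to 8.39 at P21. At P75 they overlapped (7.72 to 8.06 and 7.82 to 8.09). The random probe was also higher on exposed arrays at P7 and P14, and lower at P21 and P75. No marker was at 0, since the lowest value in the table was 16.7. In the amygdala at P75, where 9 release genes rose and 9 fell, 6 of 8 astrocyte markers rose and 5 of 8 striatal markers fell, with means of 12.2 to 12.5 and 9.99 to 10.4 on exposed and of 11.8 to 11.9 and 10.7 to 10.9 on control arrays. The striatal means were also lower at P14 (9.91 to 10.06 on exposed and 10.22 to 10.39 on control arrays), where 4 of 8 fell and 2 rose.

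Other amygdalar markers moved as well. Of 6 GABAergic markers 2 fell at P14, 3 fell at P21, and 3 fell and 1 rose at P75. Their mean log2 level was 10.88 to 10.97 on exposed and 11.07 to 11.40 on control arrays at P14, 10.86 to 11.13 and 11.19 to 11.34 at P21, and 10.75 to 11.13 and 11.26 to 11.51 at P75. Of 3 thalamic markers 1 fell at P14, 2 at P21 and 2 at P75, with means of 9.24 to 9.66 on exposed and 10.01 to 10.33 on control arrays at P75. At P21, 3 of 8 choroid plexus markers rose, with means of 8.30 to 8.37 on exposed and 7.29 to 7.69 on control arrays, and 2 of 3 blood markers rose, with means of 9.64 to 9.81 and 8.98 to 9.16. At P7, 3 of 7 oligodendrocyte markers fell, with means of 9.13 to 9.76 on exposed arrays. The means were 10.66 to 10.83 on control arrays 1 to 3 but 9.10 and 9.24 on control arrays 4 and 5. The part of these cell types in the results was not tested.

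The level of the whole list separated the hippocampal arms. The mean log2 level of the 41 genes lay between 10.46 and 10.47 on the 4 exposed P7 arrays and between 11.2 and 11.3 on the 5 control arrays. At P75 it lay between 11.3 and 11.4 on exposed and between 10.7 and 10.8 on control arrays.

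**Figure D5:**
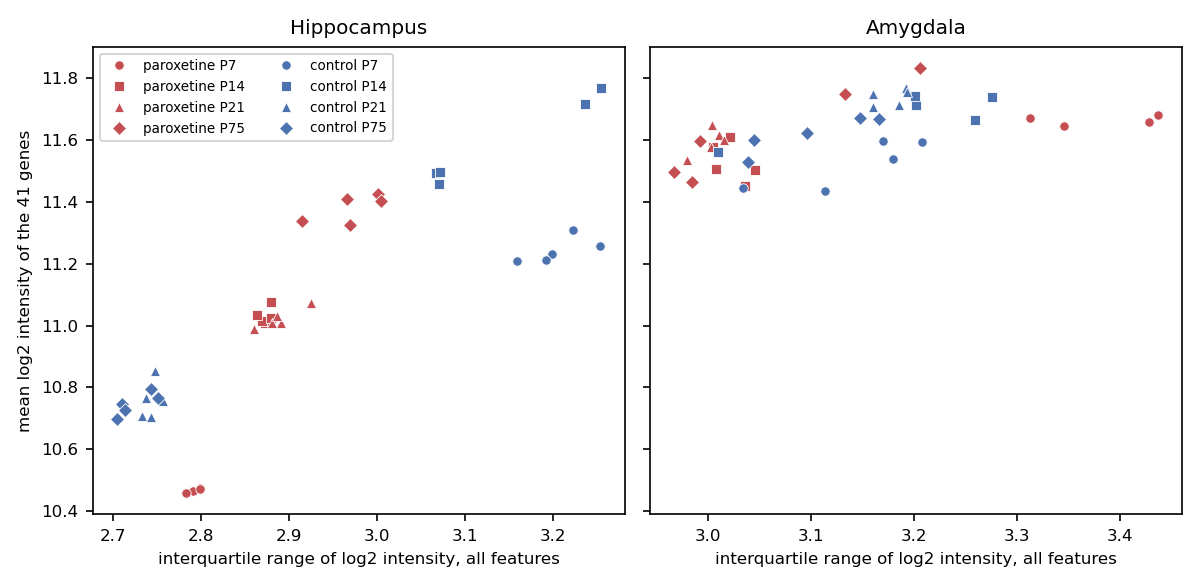
Mean log2 intensity of the 41 genes on each array (vertical axis) against the interquartile range of log2 intensity over all features of that array (horizontal axis), by region; colour gives the arm and the symbol the age. Hippocampal P7 arrays lie at 2.79 and 10.5 on average in exposed and at 3.21 and 11.2 in control rats, and the P75 arms lie the other way round.

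The authors' deposited tables, which list features past a corrected p and a fold threshold of 1.5, hold some of these genes. For the hippocampus the authors' deposited table lists 11 of the 41 as down at P7, 6 as down at P14, 1 as up at P21 (Syn1) and 12 as up at P75. For the amygdala it lists Cplx1 as down at P14, Synpr as up at P21 and none of the 41 at P7 or P75. The authors' deposited folds at P7 were 4.54 for Slc17a6, 4.52 for Syp and 3.98 for Sv2a, and at P75 2.95 for both Sv2b and Doc2a.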

How the data were processed

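Normalized intensities of 26419 features, plus 1 random control probe, were taken from the authors' deposited value table for 78 single-colour arrays. The values are on a linear scale, and how the authors corrected background and normalized is not given in the sources used here. The 8 comparison tables hold corrected p-values from an unpaired t-test with a Bonferroni correction and absolute fold changes, and list only features with corrected p no higher than 0.05 and fold no lower than 1.5, per the file headers. Their 312 per-array columns were not used. Log2 was taken with no pseudocount and no filter. RefSeq identifiers were named through a RefSeq gene table, which gave 9747 features a symbol, and the comparison tables named 41 more.

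Group means were fitted with limma 3.58.1 (R 4.3.3) on the 39 arrays of a region, or on all 78 for terms across regions, followed by eBayes; p-values were two-sided and Benjamini-Hochberg adjusted across the 26419 features. In a simulation of the hippocampal P7 comparison, 63 of 100 features raised by 1 on the log2 scale were called. Of 100 raised by 0.5, 13 were called, and there were 3 false calls. The simulated features varied independently and few were changed, whereas 53.4% were called in the data. No covariate entered, since the labels give no litter, slide or batch. The number of arrays limits the precision. Promoters were matched for 33 of the 41 genes.

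The members and all gene lists were chosen with earlier results of these data known, and no p was adjusted over a list. Values per array are given, in at least 1 comparison each, for the 2 largest called rises and falls of each exposure comparison and of each control age course, for genes called one way at most ages, for the gene with the smallest mean change, and for the synapsin, SV2 and glutamate transporter families. The comparison of P75 with P7 within exposed rats and the fits of reduced sets of amygdalar arrays were added after values had been seen. Alternatives were quantile normalization, array weights, moderation with trend and robust variances, removal of the dimmer 50% of features, a fit of only the groups compared, the random probe as a covariate, the dimmest feature of a gene, a plain t-test, the replicate number as a block, reduced sets of hippocampal or amygdalar arrays, and leaving out each array in turn.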

Additional observations from a re-analysis of the deposited data

Results flagged for a closer look

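Of 400 groups of 4 or 5 arrays, 19 had 1 array apart from the rest by Dixon's criterion, and chance flags about 1 in 20 groups. In exposed amygdala these were Sv2a at P14 (array 5, 4111), Sv2c at P14 (array 2, 556) and Vamp2 at P14 (array 3, 32459). In control amygdala they were Sv2a at P7 (array 3, 5341), Syn3 at P7 (array 5, 1066), Unc13a at P7 (array 5, 513), Syp at P14 (array 5, 10197), Sv2a at P21 (array 3, 3591) and Unc13a at P21 (array 3, 765). In exposed hippocampus they were Vamp1 at P14 (array 4, 1409), Vamp1 at P21 (array 4, 1162), Sv2c at P21 (array 3, 203), Unc13a at P21 (array 5, 551) and Syt4 at P75 (array 2, 876). In control hippocampus they were Vamp1 at P7 (array 5, 535), Vamp1 at P14 (array 1, 1157), Sncb at P14 (array 5, 41266), Cplx1 at P21 (array 2, 15196) and Doc2a at P21 (array 1, 206). All values are intensities.

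The exposure difference itself differed between the regions, hippocampus minus amygdala, for 29 of the 41 genes at P7, 22 at P14, 21 at P21 and 31 at P75. Of all features 49.4%, 28.1%, 37.6% and 36.9% were called for this term at these ages in turn. The lowest and highest called terms were -2.71 for Slc17a6 and 0.82 for Snap25 at P7, -2.03 for Slc17a6 and 0.88 for Doc2b at P14, -0.35 for Synpr and 1.27 for Doc2b at P21, and 0.37 for Dnajc5 and 1.495 for Doc2a at P75. The exposure difference also differed between P75 and P7 for 34 genes in the hippocampus (59.4% of all features called), between -0.49 for Snap25 and 3.20 for Slc17a6. In the amygdala it did so for 9 genes (17.3% of all features called), between -1.01 for Unc13c and 0.69 for Sv2a.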

How the results depend on the processing

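Counts are of called genes among the 41. Single genes were followed through these settings only where values per array are given above. Quantile normalization gave 8 in the hippocampus at P21, and for the amygdalar age term 7 (4 up, 3 down), against 9 (2 up, 7 down). Leaving out the dimmer 50% of features gave 6 in the amygdala at P7 and 2 for its control step from P21 to P75. Trend and robust moderation gave 6 and 2 there, and 9 (4 up, 5 down) for that step in the hippocampus, against 7 (4 up, 3 down). Array weights gave 2 for that step in the amygdala. Fits of only the groups compared gave, in the amygdala, 0 at P7, 12 at P14, 6 at P75, 4 for the age term, 2 for the control step from P7 to P14 and 4 for that from P14 to P21. For the hippocampal control step from P21 to P75 they gave 0, with 11 genes at an unadjusted p under 0.05. With the random probe as a covariate, hippocampal counts were 8 at P7, 0 at P21, 3 at P75, 5 for the age term, 5 for the control course from P7 to P75 and 2 for the control step from P14 to P21. Amygdalar counts were 0 at P7 (6 genes at an unadjusted p under 0.05), 9 at P21, 10 at P75, 11 for the control step from P14 to P21 (5 up, 6 down, against 10 up, 6 down) and 0 for that from P21 to P75 (5 at an unadjusted p under 0.05). The regional term had 14 at P7, 13 at P14 and 1 at P21. Among the genes followed singly, called differences that turned with this covariate were those of Doc2b (0.61), Vamp2 (-0.063) and Syn1 (0.018) at P7. At P21 they were those of Syt2 (-0.11) and Doc2b (-0.20), and all were in the hippocampus. The dimmer feature of Rims2 gave -0.50 at P21 and -0.45 at P75. With exposed arrays 1 and 2 alone Vamp1 at P7 gave -0.047. A plain t-test gave 0 in the amygdala at P7, 24 at P21, 6, 10 and 2 for its 3 successive control steps, and 3 for the hippocampal control step from P21 to P75. Without 1 array, counts ranged from 10 to 16 in the hippocampus at P21, 1 to 4 in the amygdala at P7, 8 to 12 for the amygdalar control step from P14 to P21 and 4 to 6 for the hippocampal one from P21 to P75. In fits added after seeing the data, P7 amygdalar control arrays 1 to 3 alone gave 1 in the amygdala at P7, 5 for the amygdalar age term (3 up, 2 down) and 7 for the control step from P7 to P14. Exposed P75 arrays 3 and 5 alone gave 10 in the amygdala at P75 (10 up, 0 down, against 9 up, 9 down) and 4 for the age term (4 up, 0 down). The cause of these changes was not tested. The replicate numbers did not pair the arrays: 0 of 38 pairs had a correlation over 0.1 (range -0.158 to 0.0769), and 5 exposed arrays correlated best with their own number. With the replicate block the counts in the hippocampus at the 4 ages were 33, 30, 15 and 33, and in the amygdala 3, 19, 13 and 17. Regional terms then had 29, 21, 20 and 31, and the age terms 34 and 8.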
